A study of Rattus norvegicus with 20 samples.

Results

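Angptl4 (ENSRNOG00000007545) and Lpl (ENSRNOG00000012181) are the inhibitor and the enzyme of 1 lipase system, and their transcripts were followed in 20 rat hearts. They are 2 of the 24059 gene IDs in the count table, and both were among the 14293 IDs with enough counts to be tested. The pair was chosen by its levels in these same hearts, where Angptl4 was high and Lpl low in diabetes, so the levels and fold changes are given as a description, without p-values.

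Lipoprotein lipase, the product of Lpl, splits the triglycerides of circulating lipoproteins into fatty acids. In the heart it is made by cardiomyocytes, secreted, and carried by the endothelial protein GPIHBP1 to the capillary lumen, where it acts. Angiopoietin-like 4, the product of Angptl4, is a secreted protein that inactivates the lipase, and its gene is known to be induced by fatty acids through PPAR receptors and by fasting and glucocorticoids. Transcript levels are not enzyme activity, which is also set by secretion, transport and inhibition of the protein.

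The hearts came from male Sprague Dawley rats, either wild type (WT) or with a global knockout of Vegfb (VegfbKO). In the knockout a lacZ cassette sits in exon 1 of Vegfb, placed there with zinc-finger nucleases, so the gene was disrupted in every cell type; the WT rats were littermates. Diabetic rats received streptozotocin (STZ, 55 mg/kg), a toxin of the pancreatic beta cell, and were taken on day 4 of diabetes, and control rats received none. The 4 groups were thus WT control, WT diabetic, VegfbKO control and VegfbKO diabetic, with 5 rats each, an age of 9 weeks in the labels and 7 weeks before STZ in the series text. RNA was taken from whole ventricle, so for either gene fewer cells of a type and less RNA per cell cannot be told apart.

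Total counts per heart lay between 7220469 and 26664479, with a median of 20746736. Levels are given as counts-per-million (CPM) after TMM scaling, a factor for each library that allows for a few genes taking up much of the count. The factor was 0.729 in WT diabetic replicate 2 and 0.693 in VegfbKO diabetic replicate 1, and between 0.935 and 1.17 in the other 18 libraries. In these 2 libraries the 4 IDs that exceeded 5% of the count of any library held 43.7% and 46.3% of the count, against 8.47% to 18.0% elsewhere, and the fold changes are therefore also given without them.

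The promoter of Angptl4 is shown because it is the region from which the more strongly changing transcript of the pair starts. Of the 2 genes, 1 was matched by symbol in the RefSeq promoter table (GRCr8), and Lpl was missing. The window chr7:15258632-15258931, on the minus strand, runs from 250 bases before to 50 bases after the transcription start site, with 58.3% G or C. In the sequence, written 5′ to 3′ along the gene, capitals mark every match to a searched motif.
Angptl4: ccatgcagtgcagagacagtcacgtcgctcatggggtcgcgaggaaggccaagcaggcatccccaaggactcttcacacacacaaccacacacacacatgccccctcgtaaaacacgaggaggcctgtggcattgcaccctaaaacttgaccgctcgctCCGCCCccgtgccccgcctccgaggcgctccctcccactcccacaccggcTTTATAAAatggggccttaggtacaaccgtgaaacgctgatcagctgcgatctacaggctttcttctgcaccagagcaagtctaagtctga

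Near the start site lay TATAAA, the TATA box, which matched on the plus strand from -39 to -34 and, overlapping it, on the minus strand from -41 to -36 relative to the start site. The GC box GGGCGG matched once, on the minus strand from -91 to -86. On either strand there was no match to AGGTCA, the core hexamer of PPAR elements, to a direct repeat of it with 1 base between and up to 2 mismatches, to the glucocorticoid receptor hexamer TGTTCT, to the FoxO motif TGTTTAC, to the E-box CACGTG or to CCAAT. Among all 33469 promoter windows of the same length, 14.2% held TATAAA, 33.1% GGGCGG, 16.2% AGGTCA, 3.77% the direct repeat, 20.7% TGTTCT, 3.78% TGTTTAC, 6.42% CACGTG and 37.5% CCAAT. A match describes letters and not a bound site, and a known PPAR element of Angptl4 lies in an intron, outside this window.

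Angptl4 had few counts in control hearts. In WT control hearts its level was 1.71, 1.20, 0.767, 1.48 and 0.769 CPM in replicates 1 to 5, from counts of 39, 9, 13, 42 and 18. In VegfbKO control hearts it was 1.09, 1.67, 3.45, 0.913 and 2.61 CPM, from counts of 19, 33, 74, 23 and 59. The control genotypes overlapped: VegfbKO replicates 3 and 5 lay above every WT control heart, and the other 3 lay within the WT range. With so few counts the precision was low, and the count of 9 has a 95% Poisson interval that corresponds to 0.547 to 2.27 CPM, which takes in most of the control values.

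In diabetic hearts Angptl4 was well counted and much higher. The WT diabetic hearts had 23.4, 73.9, 72.6, 62.6 and 51.1 CPM of Angptl4 in replicates 1 to 5, from counts of 329 to 1750. The VegfbKO diabetic hearts had 54.3, 34.2, 115.0 (replicate 3), 65.1 and 38.7 CPM, from counts of 272 to 2493. The lowest diabetic heart, WT replicate 1, was still far above the highest control heart, VegfbKO replicate 3 at 3.45 CPM, so control and diabetic hearts did not overlap in either genotype. The diabetic genotypes did overlap, and only VegfbKO replicate 3 lay above all WT diabetic hearts.

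Lpl was a highly counted transcript in every heart, with at least 6761 counts, so counting error was small beside the differences between rats. In WT control hearts its level was 1869, 2052, 1871, 2127 and 1805 CPM. In VegfbKO control hearts Lpl stood at 2455, 2088, 1754, 2060.5 and 2022 CPM. The VegfbKO controls held both the highest and the lowest control value, in replicates 1 and 3, and the other 3 lay within the WT control range.

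Lpl was lower in the diabetic hearts. The WT diabetic values were 1376, 1448, 1382, 1294 and 1542 CPM. The VegfbKO diabetic values were 1351, 1514, 1572, 1462 and 1576 CPM. The highest diabetic heart, VegfbKO replicate 5, lay below the lowest control heart, VegfbKO replicate 3 at 1754 CPM. After TMM scaling no diabetic heart thus reached a control level. With library totals alone this separation was not complete. VegfbKO diabetic replicate 5 then had 1757 CPM, slightly above WT control replicate 3 at 1748 CPM. With TMM, VegfbKO diabetic replicates 3 and 5 lay slightly above the WT diabetic hearts, and the other 3 within their range.

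**Figure D1:**
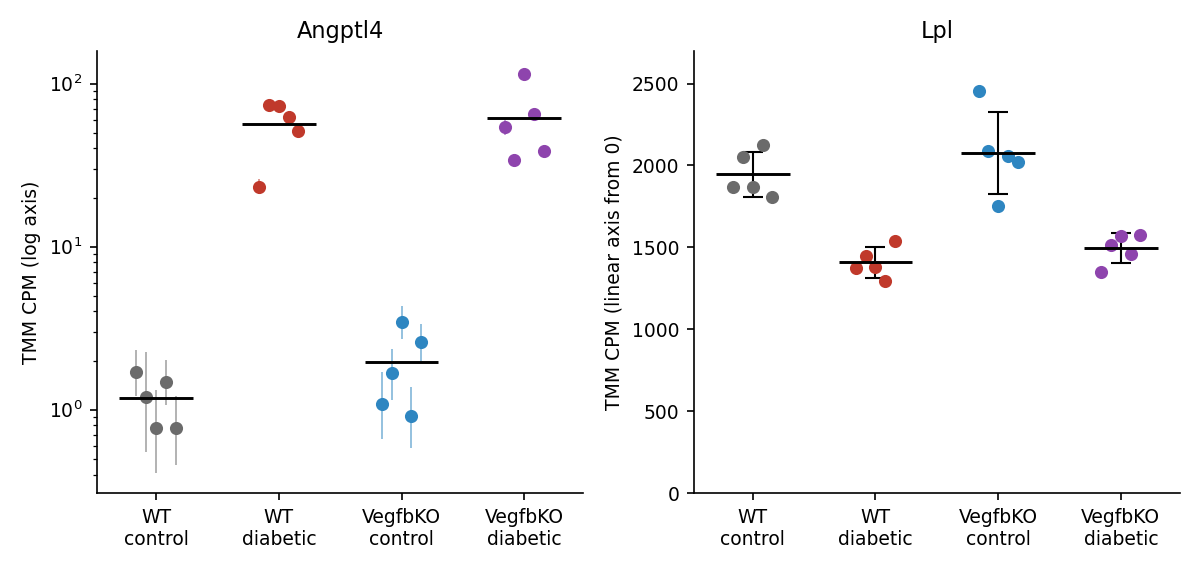
Level of Angptl4 (left, log axis) and Lpl (right, linear axis from 0) in each heart, in TMM-scaled CPM; points are hearts and horizontal bars are means of 5. Thin lines on the left are 95% Poisson intervals of single hearts, and the error bars on the right are the SD of 5 hearts. With this scaling all diabetic hearts lie above all controls for Angptl4 and below them for Lpl.

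Ordered by group mean, Angptl4 ran from VegfbKO diabetic (61.5 ± 32.4 CPM, SD, n = 5) through WT diabetic (56.7 ± 20.8) and VegfbKO control (1.95 ± 1.07) to WT control (1.18 ± 0.421). The neighbours of like treatment overlapped: the diabetic means differed by 4.78 CPM and the control means by 0.762 CPM, against SDs of 32.4 and 20.8 CPM in diabetes and of 1.07 (VegfbKO) and 0.421 (WT) in controls. The order of the genotypes in diabetes turned with 1 heart, since without VegfbKO diabetic replicate 3 the log2 fold change, VegfbKO against WT, was -0.25. In controls it was 0.38 without VegfbKO control replicate 3, against 0.69 with it.

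For Lpl the order was VegfbKO control (2076 ± 250.3 CPM, SD, n = 5), WT control (1945 ± 137), VegfbKO diabetic (1495 ± 93.2) and WT diabetic (1408 ± 92.5). VegfbKO hearts had the higher mean in both treatments, by 131 CPM in controls and 86.8 CPM in diabetes, with overlap in each. The control difference moved with single hearts: as a log2 fold change it was 0.09, but 0.03 without VegfbKO control replicate 1 and 0.15 without replicate 3. With diabetes the mean fell by 537 CPM in WT hearts and fell by 581 CPM in VegfbKO hearts, more than any of the 4 SDs.

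In WT hearts the log2 fold change of Angptl4, diabetic against control, was 5.55, a 46.7-fold higher level. Its approximate standard error (SE), derived from the test statistic, was 0.49. In VegfbKO hearts it was 4.98 (SE 0.45), or 31.5-fold. Without the 2 libraries dominated by 4 IDs, a setting chosen after seeing the data, the values were 5.43 and 5.00.

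The Lpl level fell by 27.6% with diabetes in WT hearts, a log2 fold change of -0.47 (SE 0.09), and by the same log2 value of -0.47 (SE 0.09) in VegfbKO hearts. Without the 2 dominated libraries the values were -0.48 and -0.45. With library totals alone they were -0.51 and -0.44, with an SE of 0.19 each.

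In the whole-table fit a gene was called at an adjusted p under 0.05 with an absolute log2 fold change above 0.27. Over all tested genes, 6.06% were called higher and 7.07% lower in WT diabetic hearts, and 3.63% higher and 4.21% lower in VegfbKO diabetic hearts. These shares depend on the scaling: with TMM 1876 genes were called in WT and 1121 in VegfbKO hearts (519 higher), and with library totals alone 687 and 276 (169 higher); which genes were shared was not counted. Without VegfbKO diabetic replicate 3 the VegfbKO count was 643. Non-overlap of 5 diabetic and 5 control hearts, diabetic higher, was found for 4.04% of tested genes in WT and 3.46% in VegfbKO hearts, and diabetic lower for 5.33% and 4.76%. With both genotypes together, 10 hearts against 10, these shares were 1.12% higher and 1.67% lower. The pair was chosen by these contrasts, so nothing is read from these shares for it.

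**Figure D2:**
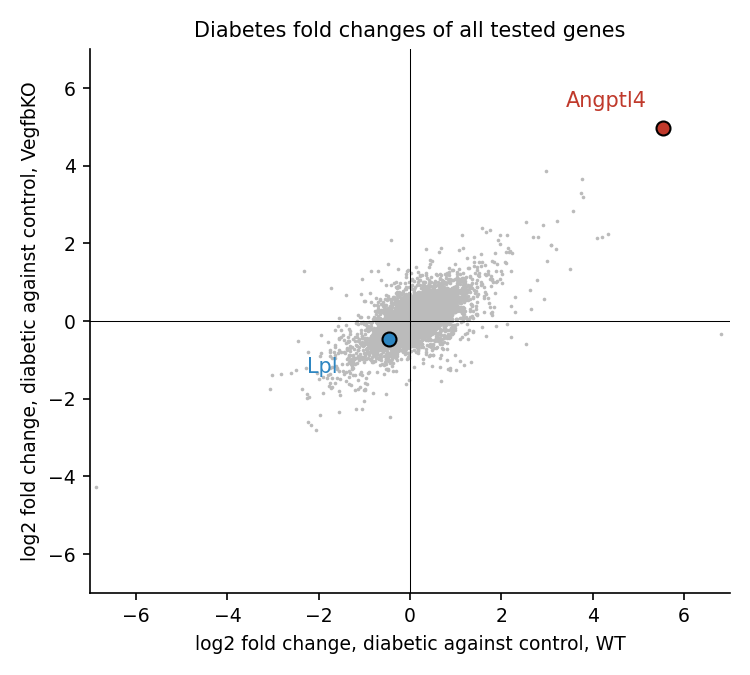
Log2 fold change, diabetic against control, of each of the 14293 tested genes in WT hearts (x axis) and VegfbKO hearts (y axis), with Angptl4 and Lpl marked. Angptl4 lies at 5.55 and 4.98, and Lpl at -0.47 on both axes.

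Between genotypes both genes overlapped in both treatments. In control hearts the log2 fold change, VegfbKO against WT, was 0.69 (SE 0.59) for Angptl4 and 0.09 (SE 0.09) for Lpl. Without VegfbKO control replicate 3 these were 0.38 and 0.15, and without VegfbKO control replicate 1 the Lpl value was 0.03. With library totals alone the control Lpl value was 0.05 (SE 0.19) and the diabetic Angptl4 value 0.18 (SE 0.39). In diabetic hearts it was 0.12 (SE 0.35) for Angptl4 and 0.09 (SE 0.09) for Lpl. Of all tested genes, 0.028% were called between genotypes in control hearts and 0.042% in diabetic hearts. The diabetic share rests on 6 genes, a count that was 65 with DESeq2, 38 with the likelihood ratio test and between 2 and 181 with 1 library left out, highest without WT diabetic replicate 3. The diabetic Angptl4 value turned with 1 library: without VegfbKO diabetic replicate 3, the heart at 115.0 CPM, it was -0.25, and it was -0.08 without WT diabetic replicate 1, the heart at 23.4 CPM. It was 0.27 without VegfbKO diabetic replicate 2, 0.24 without replicate 5 of that group, and 0.23 and 0.22 without WT diabetic replicates 2 and 3. The diabetic Lpl value was 0.05 without WT diabetic replicate 4. Without the 2 dominated libraries the diabetic values were 0.26 for Angptl4 and 0.13 for Lpl.

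The diabetes fold change of VegfbKO hearts minus that of WT hearts was -0.57 (SE 0.69) for Angptl4 and -0.01 (SE 0.12) for Lpl. The Angptl4 difference moved with single libraries, from -0.94 (SE 0.59) without VegfbKO diabetic replicate 3 to -0.26 (SE 0.72) without VegfbKO control replicate 3. The Lpl difference was near 0 and took either sign when single libraries were left out, between -0.06 and 0.06. Without the 2 dominated libraries the differences were -0.43 and 0.03.

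**Figure D3:**
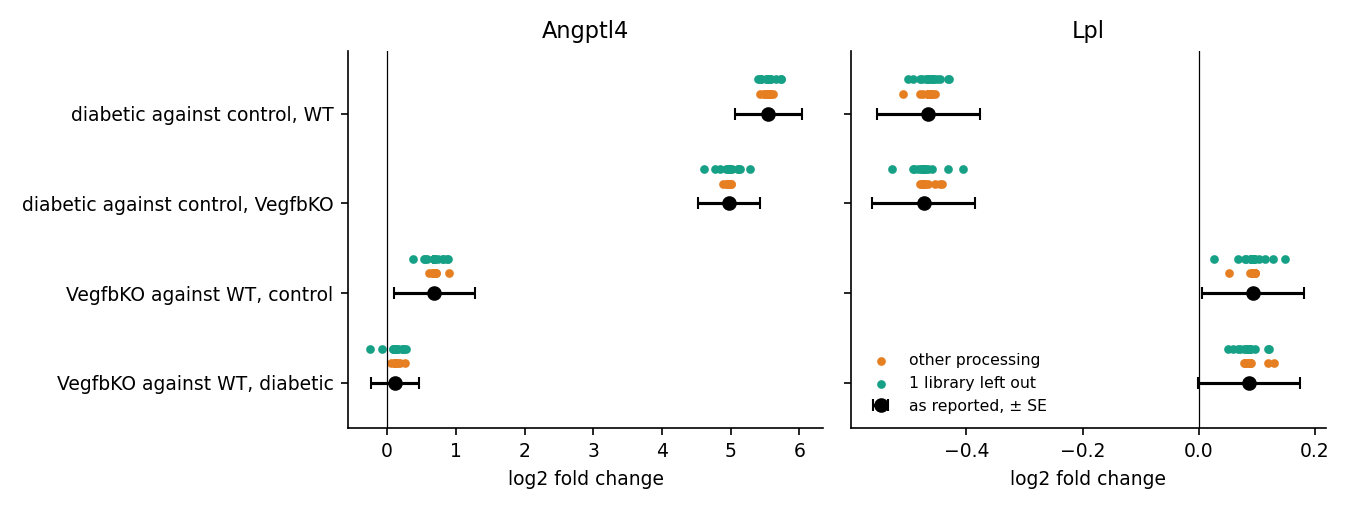
Log2 fold changes of Angptl4 (left) and Lpl (right) in the 4 comparisons; black points are the values given in the text with SE bars, orange points are other ways of processing and green points leave out 1 library each. The x axes differ in scale. The diabetes values keep their sign in each setting drawn, and the Angptl4 difference between diabetic genotypes spans 0.

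Setting both genes against each other within a heart removes the library scaling. Angptl4 counts per 1000 Lpl counts were 0.913, 0.583, 0.410, 0.697 and 0.426 in WT control hearts and 0.444, 0.800, 1.97, 0.443 and 1.29 in VegfbKO control hearts. They were 17.0, 51.0, 52.5, 48.4 and 33.1 in WT diabetic hearts and 40.2, 22.6, 73.2, 44.5 and 24.6 in VegfbKO diabetic hearts. Counts are not corrected for transcript length, so only differences between hearts are read from this ratio. No diabetic heart came near a control heart, and the genotypes overlapped in both treatments.

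On the log2 scale the mean ratio was 6.01 higher in diabetic than in control hearts of WT rats and 5.49 higher in VegfbKO rats, and without the 2 dominated libraries these values were 5.90 and 5.46. The mean ratios of the diabetic groups were 40.4 ± 15.2 in WT and 41.0 ± 20.4 in VegfbKO hearts (SD, n = 5), a difference well within their spread. In controls they were 0.606 ± 0.208 and 0.989 ± 0.648, again with overlap.

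The genes differed in how much rats of 1 group varied. For Angptl4 the pooled SD within groups was 0.64 (log2) in control and 0.69 in diabetic hearts, larger than that of 94.4% and 92.2% of tested genes. For Lpl it was 0.14 in control and 0.09 in diabetic hearts, larger than that of 31.0% and 3.27% of tested genes. The medians over all tested genes were 0.19 and 0.22. Against all tested genes, Angptl4 was thus among the most variable transcripts between rats of the same group, and Lpl in diabetic hearts among the least. The tested genes were not matched for level. In control hearts the low Angptl4 counts add counting error to its spread, while Lpl, with at least 6761 counts, carries little.

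Whether rats with more Angptl4 had less Lpl was asked separately in the 10 control and the 10 diabetic hearts, because these form separate clusters and a pooled value would only restate the difference between them. In control hearts Pearson r of the log2 levels was -0.19 (permutation p = 0.595, n = 10) and Spearman rho -0.18 (permutation p = 0.632). In diabetic hearts r was 0.08 (permutation p = 0.817, n = 10) and rho 0.02 (permutation p = 0.973). Adjusted over the 2 relations, p was 0.817 for each Pearson r and 0.973 for each rho, so no relation was detected with 10 hearts.

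Single hearts set the sign of these values. VegfbKO control replicate 3 had the highest Angptl4 and the lowest Lpl of the control hearts, and without it r was 0.17. Without the 2 control hearts farthest from the median Angptl4, VegfbKO replicates 3 and 5, r was 0.25 (exact permutation p = 0.568, n = 8). In diabetic hearts r was -0.12 without WT replicate 1 and -0.22 without VegfbKO replicate 3. Without both of these, the 2 hearts farthest from the median, it was -0.60 (exact permutation p = 0.123, n = 8). With the genotype means taken out, r was -0.40 (permutation p = 0.254) in control and 0.06 (permutation p = 0.871) in diabetic hearts. Without the 2 dominated libraries r in diabetic hearts was 0.11 (exact permutation p = 0.800, n = 8).

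**Figure D4:**
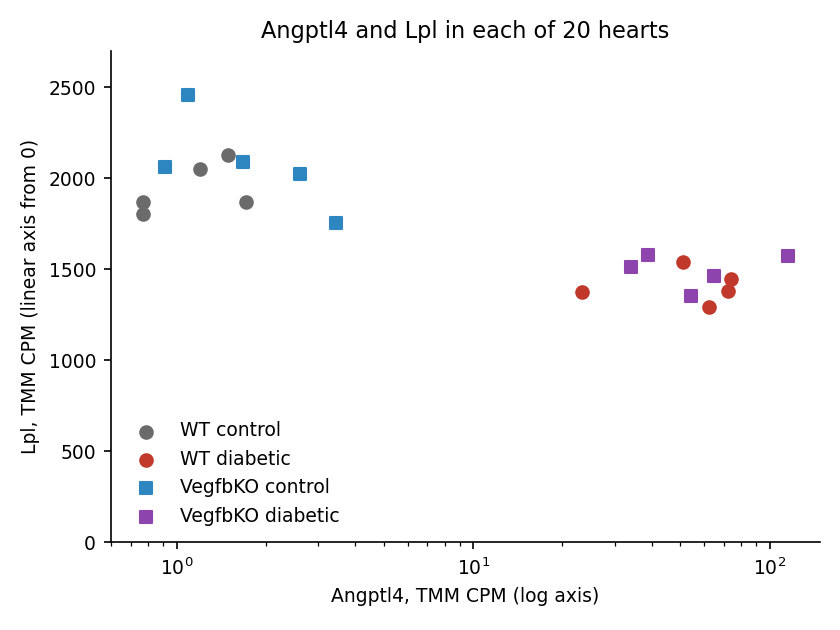
Lpl (y axis, TMM CPM, linear from 0) against Angptl4 (x axis, TMM CPM, log axis) in each of 20 hearts; circles are WT and squares VegfbKO. Control and diabetic hearts form separate clusters, and within each cluster r changed sign without the 2 outermost hearts.

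Among 12767 tested IDs with a mean of at least 1 CPM, ENSRNOG00000019120 had the highest Pearson r with Angptl4 over all 20 hearts (r 0.982, Spearman rho 0.899, rank 4 by rho). Control and diabetic hearts lie apart here too, so this r also carries the difference between them. ENSRNOG00000019120 ranged from 6.85 to 9.58 CPM in the 10 control hearts and from 60.7 to 206.6 CPM in the 10 diabetic hearts. Its log2 fold changes were 3.76 in WT and 3.65 in VegfbKO hearts. Its highest value, 206.6 CPM, was in VegfbKO diabetic replicate 3, which also had the highest Angptl4, and its lowest diabetic value, 60.7 CPM, in WT diabetic replicate 1, which had the lowest diabetic Angptl4. With group means taken out, ENSRNOG00000019120 ranked 7 by Pearson r (r 0.673) and 38 by Spearman rho (0.608). ENSRNOG00000029127 was then most like Angptl4 (r 0.754, rho 0.781). It lay at 3.72 to 6.87 CPM, with log2 fold changes of 0.06 and 0.02 with diabetes.

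For Lpl the closest ID over all 20 hearts was ENSRNOG00000050843 (r 0.9675, rho 0.953). It lay between 149 and 188 CPM in control hearts and between 109.8 and 146 CPM in diabetic hearts, and its log2 fold change was -0.44 in both WT and VegfbKO hearts. With group means taken out, ENSRNOG00000002730 came first by Pearson r (r 0.820, rho 0.794), at 118 to 165 CPM with log2 fold changes of -0.05 and 0.05, and ENSRNOG00000050843 came next (r 0.811) but first by Spearman rho (0.797). These are the highest of 12767 values each and were picked for that, so no p-value is given. The hearts share library depth and scaling, and the values over all 20 hearts also carry the difference between control and diabetic hearts.

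**Figure D5:**
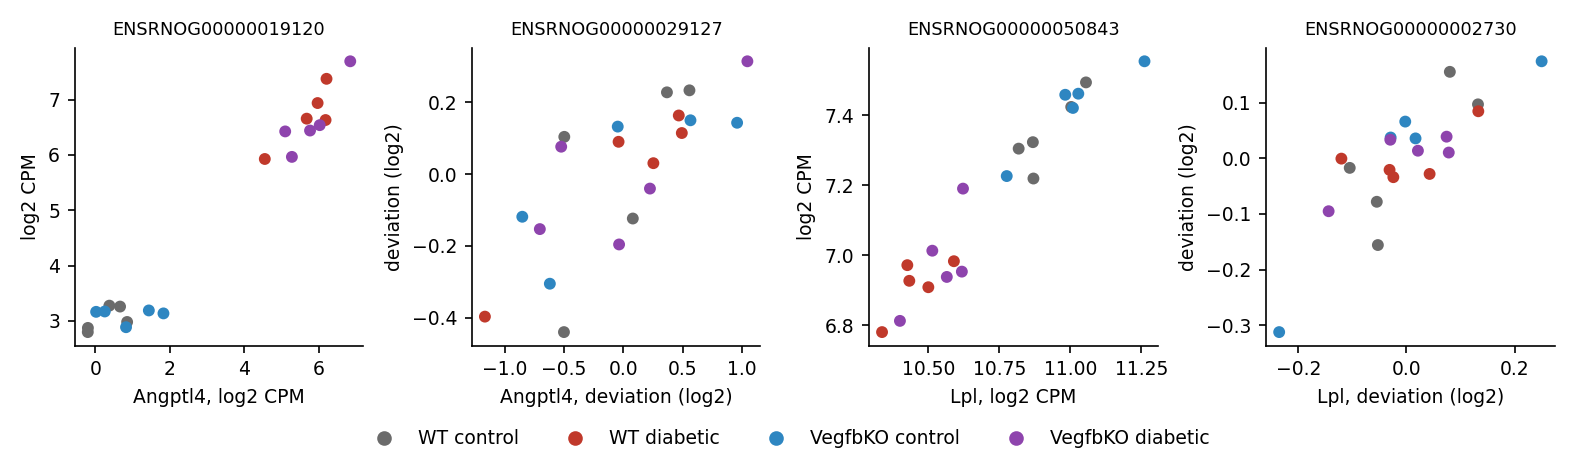
For each of the 4 IDs named as most like Angptl4 or Lpl, its log2 CPM, or its deviation from the group mean, against that of the gene in 20 hearts, coloured by group. In the panels of log2 CPM the diabetic and control hearts do not overlap. For ENSRNOG00000050843 they nearly meet, with the highest diabetic heart at 146 CPM and the lowest control heart at 148.95 CPM. In the panels of deviations each group's mean is taken out on both axes, so the groups cannot lie apart there.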

How the data were processed

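The data were RNA-seq of heart ventricle from 20 rats, 5 in each of 4 groups. The deposited table held estimated counts per Ensembl gene ID; the submitters' processing notes name kallisto, edgeR and DESeq2 and the build mRatBN7.2. Estimated counts were rounded to whole numbers. IDs with too few counts were removed with filterByExpr, which left 14293 of 24059. Library composition was scaled by trimmed mean of M-values (TMM), and edgeR (version 4.0.16, R 4.3.3) fitted a quasi-likelihood model with 1 mean for each group. Each SE from edgeR is approximate: the size of the log2 fold change divided by the square root of the quasi-likelihood F statistic. Genes were called where p, adjusted over all genes tested by Benjamini and Hochberg's method, was under 0.05 and the log2 fold change was beyond 0.27 in size, the thresholds of the study's methods. Correlations used log2 CPM with a prior count of 2 and two-sided permutation tests of 100000 resamples (SciPy 1.17.1, NumPy 2.4.6); with fewer than 10 hearts every ordering was used. Alternatives included DESeq2 (version 1.42.0), other scalings and filters, and leaving out each library.

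Angptl4 and Lpl and the lists were chosen with earlier results of these data known, so their levels and fold changes carry no p-value. The IDs whose pattern was most like each gene were the single highest Pearson r among tested IDs with a mean of at least 1 CPM. The files do not pair IDs with names, and 0 Ensembl IDs were found in the reference table, so the lipase pathway list, cell type markers and the targeted gene Vegfb were not analysed here. The names Angptl4 and Lpl came from the definition of the pair. Intervals on counts cover counting error only. The fits were tested on simulated data before use.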

Additional observations from a re-analysis of the deposited data

Results flagged for a closer look

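Of 32 groups of 5 hearts examined, 6 held a heart far from the other 4, with a gap to its nearest neighbour above 0.71 of the group's range; chance gives about 1 in 20 groups. None was an Angptl4 or Lpl level, and 5 of the 6 were in IDs picked for their likeness to Angptl4 or Lpl, so the rate is no measure of chance for them. ENSRNOG00000019120 had the highest Pearson r with Angptl4 over all 20 hearts. It was 7.285 CPM in VegfbKO control replicate 2 and 206.64 CPM in VegfbKO diabetic replicate 3. ENSRNOG00000029127 was 4.0458 CPM in WT diabetic replicate 1. ENSRNOG00000002730 was 149.52 CPM in WT diabetic replicate 5 and 142.26 CPM in VegfbKO diabetic replicate 1. The total count of WT diabetic replicate 1, 12965611, was far below the other 4 of its group. That heart also had the lowest diabetic Angptl4 level, and the part of its depth in this was not tested.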

How the results depend on the processing

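The diabetes values of Angptl4 ranged from 5.43 to 5.62 (WT) and 4.88 to 5.01 (VegfbKO) over other ways of processing, and those of Lpl from -0.51 to -0.45 and -0.48 to -0.44. With 1 library left out they ranged from 5.40 to 5.74 and 4.60 to 5.28 for Angptl4, and from -0.50 to -0.43 and -0.53 to -0.41 for Lpl.

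The relation of Angptl4 and Lpl changed sign in several settings, none with a p under 0.05. In control hearts r was 0.25 without the 2 hearts farthest from the median and 0.014 with counts thinned to the smallest total, and -0.41 to 0.17 with 1 heart left out. In diabetic hearts it was -0.60 without the 2 farthest hearts and -0.22 to 0.23 with 1 heart left out.

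Counts of called genes moved more. With library totals alone 687 genes were called in WT (1876 with TMM), 276 in VegfbKO (169 of them higher, against 519 of 1121 with TMM) and 3 between diabetic genotypes (6); that last count was 65 with DESeq2, 38 with the likelihood ratio test and 3 with only the 10 libraries of the comparison. With 1 library left out the counts were 643 to 1244 for diabetes in VegfbKO hearts, lowest without VegfbKO diabetic replicate 3, and 2 to 181 between diabetic genotypes, highest without WT diabetic replicate 3; leaving out any of 13 of the 20 libraries moved this last count by over 1.5 times. The causes were not tested. For the difference of diabetes fold changes edgeR called 0 genes and DESeq2 0. Of the 14293 tested genes, 600 had an unadjusted p under 0.05 in the quasi-likelihood test. That is fewer than this threshold gives when no gene differs.

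Same-numbered hearts of different groups had deviations correlated between -0.26 and 0.26, with 10 of 30 pairs over 0.1. Differently numbered hearts were not compared, so these values cannot show whether the replicate numbers pair the hearts. With a replicate block Angptl4 was 0.61 between control genotypes (0.69 without it) and 0.06 between diabetic genotypes (0.12), and 1785 and 1048 genes were called in WT and VegfbKO hearts; no count of calls above moved by over 1.5 times.

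Depth limits control Angptl4, with counts of 9 to 74. Alternatives on the pathway list were not run. The check of the knockout by Vegfb itself, and of the tissue by its markers, was not analysed here.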
